A study of Mus musculus with 6 samples.

Results

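Mitochondrial translation was examined through 31 nuclear genes whose products charge tRNAs or drive protein synthesis inside mitochondria. They were 16 aminoacyl-tRNA synthetases, 3 subunits of the glutaminyl-tRNA amidotransferase GatCAB, 3 initiation factors, 3 elongation factors, 4 release and recycling factors and 2 ribosome-associated GTPases. The members were taken by gene symbol. All 31 were found among the 51911 genes counted, and all 31 passed the filter on low counts. The muscle was gastrocnemius of male mice, profiled by bulk RNA sequencing as 3 libraries from HSA-PGC-1a3 transgenic mice and 3 from wild-type mice. HSA stands for human skeletal actin, whose promoter drives the transgene in muscle fibres, and PGC-1alpha3 is one of several isoforms of the coactivator PGC-1alpha. No agent was given to either group, as far as the labels say. The labels give neither the age nor the strain of the mice. Whether a library is 1 animal is not stated either, and p-values then measure only the spread between these samples, which may be technical.

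Mammalian mitochondria carry their own small genome, which encodes a few subunits of the respiratory chain and the tRNAs and ribosomal RNAs needed to make them. Every protein of the translation apparatus is encoded in the nucleus and imported. A synthetase joins each tRNA to its amino acid, an initiation factor places the formylated methionyl-tRNA on the small ribosomal subunit, elongation factors bring in charged tRNAs and move the ribosome along, and release and recycling factors free the finished protein and split the ribosome. PGC-1alpha is known as a coactivator of nuclear genes for mitochondrial proteins, acting through factors such as NRF1, GABPA (also called NRF2), the estrogen-related receptors (ERR) and YY1.

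Sequencing depth was 25532146 to 40846872 counts per library. Ppargc1a, the gene that encodes PGC-1alpha, had 94358, 73513 and 120862 counts with the transgene against 1179, 1809 and 1200 in wild type, which fits the labels of all 6. Over the whole transcriptome 8419 of 16593 tested genes passed at an adjusted p under 0.05, or 50.7% of all tested genes, 25.5% being higher and 25.2% lower with the transgene (edgeR quasi-likelihood test, Benjamini-Hochberg adjustment over all tested genes). Levels are given as CPM, counts scaled to library size, with library sizes adjusted by TMM (trimmed mean of M values), and log2 fold changes are transgenic over wild type. TMM assumes that most genes do not change. The median log2 fold change over all genes was -0.02 with TMM. It was 0.38 when only library totals were used, and then 61.0% of genes passed, 52.3% higher and 8.73% lower. Small changes below are therefore relative to the TMM centre, and the value or count from library totals is given beside each fall and each count by role or list. Counts over pairs of genes and over members without exon overlap are with TMM only. The TMM factors were 1.15 in each transgenic library and 0.851 to 0.885 in the wild-type libraries.

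With TMM the translation genes changed in both directions and, apart from 1 gene, by little. The seryl-tRNA synthetase gene Sars2 was 2.11-fold higher in transgenic muscle. Of the 31 members, 10 rose and 8 fell, and 13 did not pass. The share called, 58.1%, was near the 50.7% of all tested genes. Only Sars2 passed and changed by more than 1.5-fold, as 24.0% of all tested genes did, and the other 17 called members changed by less than 0.5 on the log2 scale. The CPM ranges of the genotypes did not overlap for 21 members (67.7%), 12 higher and 9 lower, where 59.6% of all tested genes had no overlap (30.1% higher and 29.5% lower). The median log2 fold change of the members was 0.04 with a range of -0.41 to 1.08. Their median absolute log2 fold change was 0.20, beside 0.35 over all tested genes. Exons of 13 members overlap those of another gene on the opposite strand, and since fragments were counted without strand, these counts are uncertain to the extent of the overlap. Of the 18 members with no such overlap, 5 rose and 4 fell, a count added after seeing the data. With library totals alone the median of the members was 0.44, with 23 members higher and 0 lower in edgeR (also 0 lower at an unadjusted p under 0.05). All tested genes then had a median of 0.38, with 52.3% higher and 8.73% lower. The DESeq2 Wald test, with its own scaling, called 8 members higher and 5 lower (45.6% of all genes it tested passed), and limma-voom with TMM called 10 and 8 (50.8% of all genes).

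**Figure D1:**
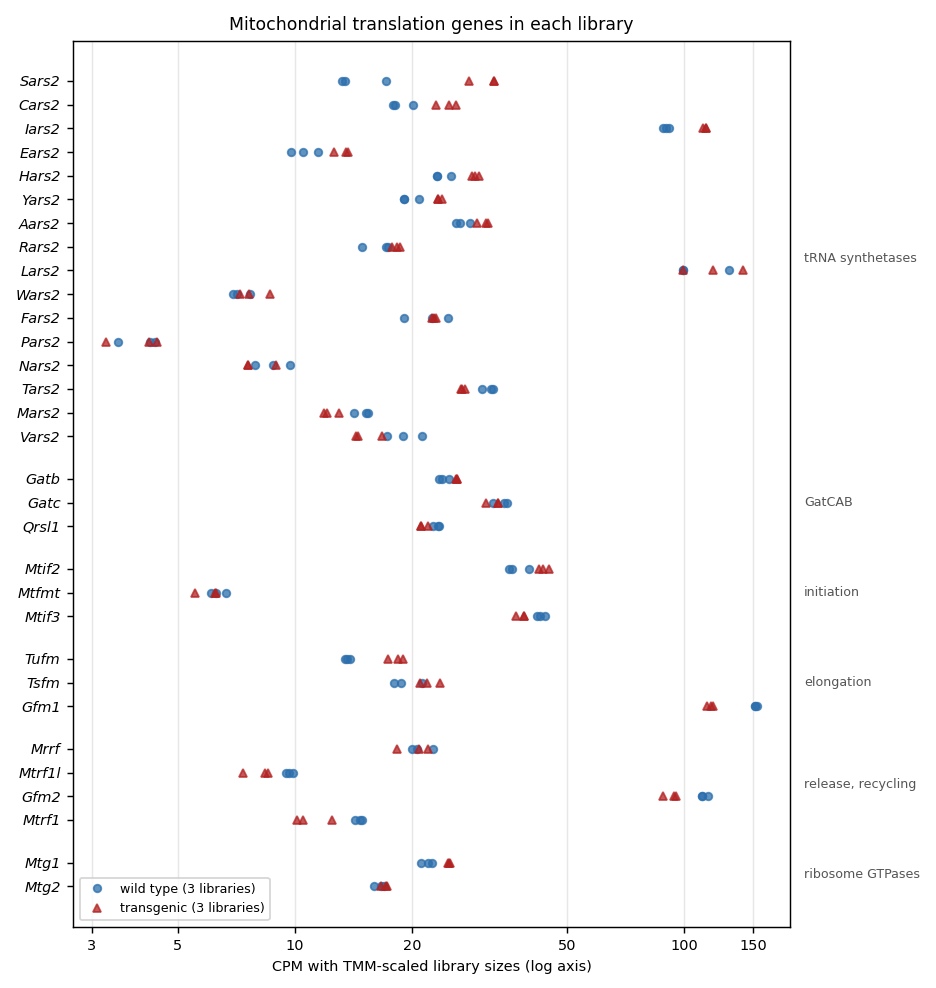
Level of each of the 31 genes in each library, in CPM with TMM-scaled library sizes on a log axis, with 1 point per library, wild type as blue circles and transgenic as red triangles, grouped by role. The transgenic points of Sars2 lie between 28.0 and 32.5 CPM and its wild-type points between 13.2 and 17.1 CPM, and the genotypes of the other genes lie closer together on this axis.

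Summed over the 31 genes, the level was 1005, 1012 and 977 CPM in transgenic libraries and 993, 979 and 988 CPM in wild-type libraries. These sums, on the TMM scale, overlapped between genotypes. By role they were not all on the same side. The 16 synthetases together gave 499.6 ± 14.3 CPM in transgenic against 438 ± 11.4 CPM in wild-type libraries (SD, n = 3 each). The 3 elongation factors gave 157 ± 3.55 against 186 ± 2.93 CPM, and the 4 release and recycling factors 132 ± 2.77 against 158 ± 3.52 CPM. GatCAB subunits gave 79.8 ± 1.58 against 81.0 ± 1.96 CPM and initiation factors 87.8 ± 2.53 against 86.3 ± 1.58 CPM, both with overlapping libraries. With library totals alone, without TMM, every one of these sums was higher in all transgenic than in all wild-type libraries, with means of 180.2 against 162 CPM for the elongation factors and 151 against 138 CPM for the release and recycling factors. The sums are carried mainly by their most abundant genes and were not tested. In bulk muscle, fewer cells of a type and less RNA per cell cannot be told apart.

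Promoter windows are shown for 5 members, the gene with the largest change and 4 that carry matches to motifs of factors through which PGC-1alpha is known to act. Each window runs from 120 bases before to 10 bases after the start site in RefSeq (GRCm38.p6), 5′ to 3′ on the strand of the gene. Capitals mark exact matches, on either strand, to GCATGCGC for NRF1, CCGGAAGT for GABPA or AAGGTCA for ERR. The positions are chr7:28741848-28741977 on the plus strand for Sars2, chr7:126487235-126487364 on the plus strand for Tufm, chr3:67429995-67430124 on the plus strand for Gfm1, chr17:35667583-35667712 on the minus strand for Vars2 and chr4:34614837-34614966 on the plus strand for Rars2.
Sars2: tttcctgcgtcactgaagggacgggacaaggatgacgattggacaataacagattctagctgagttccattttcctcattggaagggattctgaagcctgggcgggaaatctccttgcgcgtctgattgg
Tufm: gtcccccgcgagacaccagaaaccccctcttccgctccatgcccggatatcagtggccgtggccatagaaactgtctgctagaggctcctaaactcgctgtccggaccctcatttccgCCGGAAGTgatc
Gfm1: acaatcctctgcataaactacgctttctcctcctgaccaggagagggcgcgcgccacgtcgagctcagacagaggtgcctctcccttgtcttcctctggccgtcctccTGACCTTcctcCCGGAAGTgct
Vars2: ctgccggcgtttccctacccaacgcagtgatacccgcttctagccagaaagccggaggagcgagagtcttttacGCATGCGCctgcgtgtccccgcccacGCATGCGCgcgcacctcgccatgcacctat
Rars2: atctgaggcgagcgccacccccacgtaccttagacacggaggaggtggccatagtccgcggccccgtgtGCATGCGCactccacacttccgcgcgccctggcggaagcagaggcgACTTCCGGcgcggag

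Across the members, 27 had a RefSeq window of 250 bases before to 50 after the start, and Hars2, Pars2, Gatb and Mtif3 had none. GCATGCGC or its reverse complement GCGCATGC was found in 5 of the 27 windows (18.5%; Mtfmt, Mtg1, Rars2, Vars2 and Wars2) and in 5.58% of 11241 tested genes with a window. CCGGAAGT or ACTTCCGG was found in 3 windows (11.1%; Gfm1, Rars2 and Tufm) against 8.36%. AAGGTCA or TGACCTT was found in 2 windows (7.41%; Gfm1 and Mtrf1l) against 4.04%, and the YY1 motif ATGGCGGC or GCCGCCAT in 3 windows (11.1%; Lars2, Tars2 and Yars2) against 5.26%. The GCGCATGC and GCATGCGC matches of Mtg1 overlap and were counted once as a window. The windows with a match belonged to genes of all outcomes. Tufm rose, Gfm1 and Vars2 fell with TMM scaling but not with library totals alone (0.0092 and 0.069), and Rars2 did not pass. The Sars2 window held none of the 4 motifs. A match is a description of these letters, not a bound site or a cause, and the absence of one says only that the letters are not in the window.

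Sars2 encodes the synthetase that charges both mitochondrial serine tRNAs. Its gene lies on chromosome 7 from 28741992 to 28753871 (GRCm38, plus strand). Counts were 989, 840 and 1208 in the transgenic against 305, 595 and 302 in the wild-type libraries, or 32.5, 28.0 and 32.4 CPM against 13.2, 17.1 and 13.5 CPM. The lowest transgenic library stood well above the highest wild-type library. Among wild types, library 2 was the highest, and among transgenics, library 2 was the lowest. Sars2 rose by 1.08 on the log2 scale, with a standard error (SE) of 0.11 (adjusted p = 1.68e-05), or 2.11-fold with a 95% interval of 1.79 to 2.49. Per kilobase of exon, Sars2 ranked 19 of the 31 members in wild-type muscle, at 4.41 ± 0.66 CPM per kb, and 6 in transgenic muscle, at 9.34 ± 0.78. Its exons overlap no other gene, and none of its 50-base stretches occur in transcripts of another gene. The authors' deposited table lists 3614 genes, none with a log2 fold change nearer to 0 than 0.585, and Sars2 is the only member in it, at 1.04.

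The start of Sars2 lies 172 bases from the start of Mrps12, a gene for a small-subunit mitochondrial ribosomal protein read in the opposite direction. Mrps12 stood at 32.5, 31.7 and 32.3 CPM in transgenic against 24.9, 25.8 and 25.4 CPM in wild-type libraries, without overlap. It rose by 0.34 (SE 0.06, adjusted p = 0.000633), less than its neighbour. Whether the difference between them exceeds error was not tested. The Sars2 window printed above lies between these annotated starts.

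Of the remaining synthetases, 6 rose, 3 fell and 6 did not pass. Over all 16, the share called with TMM was 62.5%, beside 50.7% of all tested genes. With library totals alone 12 of all 16 synthetases were higher and 0 lower in edgeR (also 0 lower at an unadjusted p under 0.05). That setting called 52.3% of all tested genes higher and 8.73% lower. Iars2 (chromosome 1, 185284726 to 185329396), for isoleucine, was the most abundant of those that rose, per kilobase of exon, at 114, 111 and 114 CPM in transgenic against 88.0, 91.5 and 89.6 CPM in wild-type libraries. The libraries of each genotype lay within a few CPM of each other and the genotypes were well separated, at a log2 fold change of 0.33 (with SE 0.05 and adjusted p = 0.000238). Iars2 shares 2034 exonic bases, 22.9% of its exons, with Rab3gap2 on the opposite strand. Because fragments were counted without strand and for every overlapping gene, part of its count can belong to Rab3gap2, which rose by 0.78 (SE 0.07) from 40.9, 36.2 and 43.4 to 68.9, 68.4 and 68.9 CPM. The part of Rab3gap2 in the Iars2 value was not tested.

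Cars2, for cysteine, stood at 23.1, 24.9 and 26.0 CPM in transgenic against 20.1, 17.9 and 18.1 CPM in wild-type libraries, with separate CPM ranges. Its log2 fold change was 0.40 (SE 0.08, adjusted p = 0.0013). Cars2 shares 422 exonic bases, 5.83% of its exons, with Naxd on the opposite strand. The part of Naxd in the Cars2 value was not tested. Ears2, which charges mitochondrial tRNAs with glutamate, stood at 13.5, 12.6 and 13.7 against 9.75, 10.5 and 11.5 CPM. Every transgenic library was above every wild-type library, by a narrow margin between transgenic library 2 and wild-type library 3, and the log2 fold change was 0.33 (SE 0.09, adjusted p = 0.0104). Hars2, for histidine, rose by 0.29 (SE 0.07), and its 3 transgenic libraries (28.5 to 29.8 CPM) lay above the 3 wild-type libraries (23.1 to 25.1 CPM). Yars2, for tyrosine, rose by 0.26 (SE 0.07) from 19.0 to 20.9 CPM in wild-type to 23.3 to 23.8 CPM in transgenic libraries. Aars2, for alanine, rose by 0.18 (SE 0.07, adjusted p = 0.0346), and this call was lost without transgenic library 1 or 3 or wild-type library 1 or 2.

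The synthetases that fell did so by a small step that depended on the scaling. Vars2, for valine, stood at 14.5, 14.3 and 16.8 CPM in transgenic against 18.9, 17.2 and 21.3 CPM in wild-type libraries. Transgenic library 3 came close to wild-type library 2, and the log2 fold change was -0.33 (SE 0.10, adjusted p = 0.0163) with TMM but 0.069 with library totals alone. Mars2, for methionine, had 11.8 to 13.0 CPM against 14.2 to 15.4 CPM, a log2 fold change of -0.28 (SE 0.08) with TMM but 0.12 with library totals. Tars2, for threonine, had 26.6 to 27.3 CPM against 30.2 to 32.2 CPM, a log2 fold change of -0.22 (SE 0.06) with TMM but 0.17 with library totals. Each of these 3 calls was lost when 1 library was left out: transgenic library 1 for all, and also transgenic library 2 for Mars2 and Vars2 and wild-type library 3 for Vars2.

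The 6 synthetases that did not pass were Rars2 (log2 fold change 0.14), Lars2 (0.13), Wars2 (0.11), Fars2 (0.04), Pars2 (-0.02) and Nars2 (-0.14). Under library totals 4 of them passed as higher: Rars2 (0.54), Lars2 (0.52), Wars2 (0.51) and Fars2 (0.44). Rars2, for arginine, had 17.7 to 18.6 CPM in transgenic against 14.8 to 17.3 CPM in wild-type libraries, without overlap (59.6% of all tested genes had none), but its adjusted p was 0.162. The 95% intervals ran from -0.03 to 0.32 for Rars2, from -0.13 to 0.36 for Wars2 (tryptophan), from -0.16 to 0.24 for Fars2 (phenylalanine), from -0.38 to 0.33 for Pars2 (proline) and from -0.39 to 0.12 for Nars2 (asparagine). These intervals do not reach the change of Sars2. Pars2 and Nars2 were among the 5 least abundant members per kilobase of exon, and Nars2 was negative with TMM but 0.26 with library totals alone, as was Pars2 at 0.37.

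Lars2, for leucine, had by far the widest spread of the abundant members. It stood at 119, 142 and 99.1 CPM in transgenic against 130, 99.2 and 99.3 CPM in wild-type libraries, so the genotypes overlapped fully, with an interval of -0.28 to 0.54. The 3 libraries with the most Lars2 were also the 3 with the most Gm42418, a transcript annotated at a ribosomal RNA repeat. Gm42418 had 1243, 1626 and 879 CPM in transgenic against 1628, 1183 and 1156 CPM in wild-type libraries, so transgenic library 2 and wild-type library 1 were the highest of both genes. AY036118, from the same kind of repeat, had 1016, 1338 and 719 against 1372, 986 and 968 CPM. Neither shares a run of 20 or more bases with Lars2 transcripts, while Gm15564, at 13.5, 17.4 and 9.00 against 17.5, 12.1 and 13.0 CPM, shares an exact run of 52 bases. Gm26917, annotated at a ribosomal repeat too, did not follow Lars2: it had 33.2, 39.8 and 32.9 CPM in transgenic against 24.3, 24.9 and 28.0 CPM in wild-type libraries, lowest in wild-type library 1. These transcripts were chosen after their values were seen, and their part in the spread of Lars2 was not tested.

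**Figure D2:**
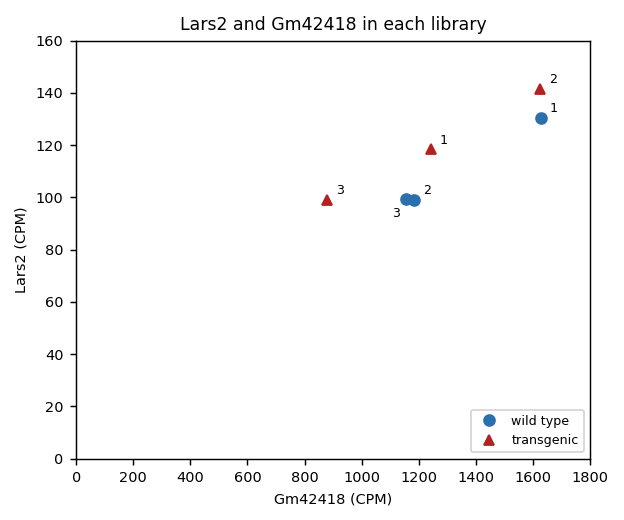
Lars2 (CPM, vertical axis) against Gm42418 (CPM, horizontal axis) in each of the 6 libraries, with the library number beside each point, wild type as blue circles and transgenic as red triangles. Transgenic library 2 (142 CPM) and wild-type library 1 (130 CPM) are the highest for Lars2 and lie at 1626 and 1628 CPM of Gm42418.

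Mitochondria of mammals have no dedicated glutaminyl-tRNA synthetase. Ears2 first places glutamate on the glutamine tRNA, and GatCAB turns it into glutamine. Of the 3 GatCAB genes 0 passed in edgeR with TMM (0 also at an unadjusted p under 0.05, in the DESeq2 Wald test and in limma-voom), while Ears2 rose. With library totals alone all 3 passed as higher, Gatb at 0.51, Gatc at 0.33 and Qrsl1 at 0.28. The share of all tested genes was 52.3% higher in that setting, and with TMM 50.7% passed in either direction. Gatb stood at 25.9, 26.1 and 26.0 CPM in transgenic against 23.8, 24.9 and 23.4 CPM in wild-type libraries, and Qrsl1, the GatA subunit, at 21.0, 22.0 and 21.1 against 22.7, 23.4 and 23.3 CPM. Neither gene overlapped between genotypes, Gatb higher and Qrsl1 lower, where 59.6% of all tested genes had no overlap. Their log2 fold changes of 0.11 (adjusted p = 0.164) and -0.12 (adjusted p = 0.157; 0.28 with library totals alone) did not pass. Gatc had 31.0 to 33.1 against 32.2 to 35.0 CPM, with an interval of -0.20 to 0.08. Whether Ears2 differed from the GatCAB genes in its response was not tested.

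The initiation factors split with TMM, 1 rising and 1 falling (25.5% and 25.2% of all tested genes). With library totals alone all 3 were higher (52.3% of all tested genes). Mtif2, which brings the initiator tRNA to the small subunit, rose from 36.1, 39.8 and 35.4 CPM in wild-type to 43.4, 45.0 and 42.5 CPM in transgenic libraries, a log2 fold change of 0.23 (with SE 0.06 and adjusted p = 0.0115). Wild-type library 2 came closest to the transgenic range, and the call was lost without wild-type library 3. Mtif3, which helps keep the small subunit free for initiation, had 38.7, 38.7 and 37.0 CPM in transgenic against 42.6, 41.8 and 44.0 CPM in wild-type libraries, a log2 fold change of -0.17 (with SE 0.06 and adjusted p = 0.03) with TMM but 0.23 with library totals. This call was lost when any 1 transgenic library, or wild-type library 3, was left out. Mtif3 shares 1505 exonic bases, 29.4% of its exons, with Gtf3a on the opposite strand, which itself fell from 44.9, 42.8 and 44.2 to 33.3, 30.1 and 28.8 CPM (log2 fold change -0.52, and -0.12 with library totals). The part of Gtf3a in the Mtif3 value was not tested. Mtfmt, the enzyme that formylates the initiator tRNA, did not pass with TMM (interval -0.32 to 0.17) but was higher with library totals (0.32).

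The elongation factors also split with TMM, 1 rising and 1 falling (25.5% and 25.2% of all tested genes). Under library totals 2 passed as higher and 0 as lower in edgeR (0 lower at an unadjusted p under 0.05 too). Library totals called 52.3% of all tested genes higher and 8.73% lower. Tufm (chromosome 7, 126487361 to 126490731) encodes the mitochondrial EF-Tu that delivers charged tRNAs to the ribosome, and stood at 18.4, 17.4 and 19.0 CPM in transgenic against 13.8, 13.4 and 13.6 CPM in wild-type libraries. All transgenic libraries lay above the narrow wild-type range, and the log2 fold change was 0.42 (SE 0.07, adjusted p = 0.000656). Gfm1 (chromosome 3, 67430096 to 67476529), which moves the ribosome along after each peptide bond, was the most abundant member per kilobase of exon, at 119, 114 and 117 CPM in transgenic against 152, 152 and 154 CPM in wild-type libraries. These ranges were far apart, and the log2 fold change was -0.39 (SE 0.05, adjusted p = 7.04e-05) with TMM but 0.0092 with library totals alone. Tsfm, the exchange factor that reloads Tufm with GTP, had 23.6, 21.9 and 20.9 against 17.9, 18.7 and 21.3 CPM. Its wild-type library 3 lay inside the transgenic range, and it did not pass (log2 fold change 0.20, interval 0.01 to 0.38, adjusted p = 0.0706).

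Tufm shares sequence with another gene. Of all 50-base stretches in Tufm transcripts, 54.5% also occur in Gm9755, a near-identical copy on chromosome 8. Gm9755 itself held 45, 23 and 17 counts in transgenic against 5, 16 and 17 in wild-type libraries, few beside 521 to 709 and 306 to 466 for Tufm. Per the file headers, the featureCounts command did not ask for reads that align to several places, so fragments from the shared sequence may be missing from both genes. The level of Tufm and its rank among members are therefore uncertain, and the part of this sharing in the difference was not tested.

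Of 4 release and recycling factors, 3 fell and 0 rose in edgeR with TMM (0 also at an unadjusted p under 0.05, and 2 fell and 0 rose in the DESeq2 Wald test), where 25.2% of all tested genes were lower. Their median log2 fold change was -0.27 with TMM but 0.13 with library totals alone, where 1 was higher and 0 lower in edgeR (also 0 lower at an unadjusted p under 0.05). That setting called 52.3% of all tested genes higher and 8.73% lower. Gfm2 (chromosome 13, 97137937 to 97181195), which splits the ribosome after termination together with Mrrf, had 93.9, 95.1 and 88.4 CPM in transgenic against 111, 111 and 115 CPM in wild-type libraries. The genotypes were well apart, at a log2 fold change of -0.28 (with SE 0.05 and adjusted p = 0.00113) with TMM but 0.11 with library totals. Mtrf1, a member of the release factor family, had 12.4, 10.5 and 10.1 against 14.3, 14.8 and 14.7 CPM. Its wild-type libraries were close together and above all transgenic libraries, and its log2 fold change of -0.41 (SE 0.09, adjusted p = 0.00399) kept its sign with library totals at -0.01, where it did not pass. Mtrf1l, the release factor that reads the standard stop codons, had 7.37 to 8.55 against 9.49 to 9.88 CPM (log2 fold change -0.26, adjusted p = 0.0473, and 0.14 with library totals), and this call was lost whichever library was left out. Mrrf, the recycling factor that works with Gfm2, did not pass with TMM (interval -0.23 to 0.15) but was higher with library totals (0.35).

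Of the 2 ribosome GTPases, which are known to act on the large subunit during its assembly, 1 rose with TMM and both with library totals alone. The shares of all tested genes that were higher were 25.5% and 52.3%. Mtg1 had 24.7, 25.0 and 24.9 CPM in transgenic against 21.1, 22.5 and 22.0 CPM in wild-type libraries. The transgenic libraries were almost identical and above all wild-type libraries, with a log2 fold change of 0.18 (with SE 0.06 and adjusted p = 0.0316), a call lost without wild-type library 1 or 3. Mtg2 had 17.0 ± 0.298 against 16.5 ± 0.465 CPM, with overlapping libraries, and did not pass (interval -0.11 to 0.20).

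**Figure D3:**
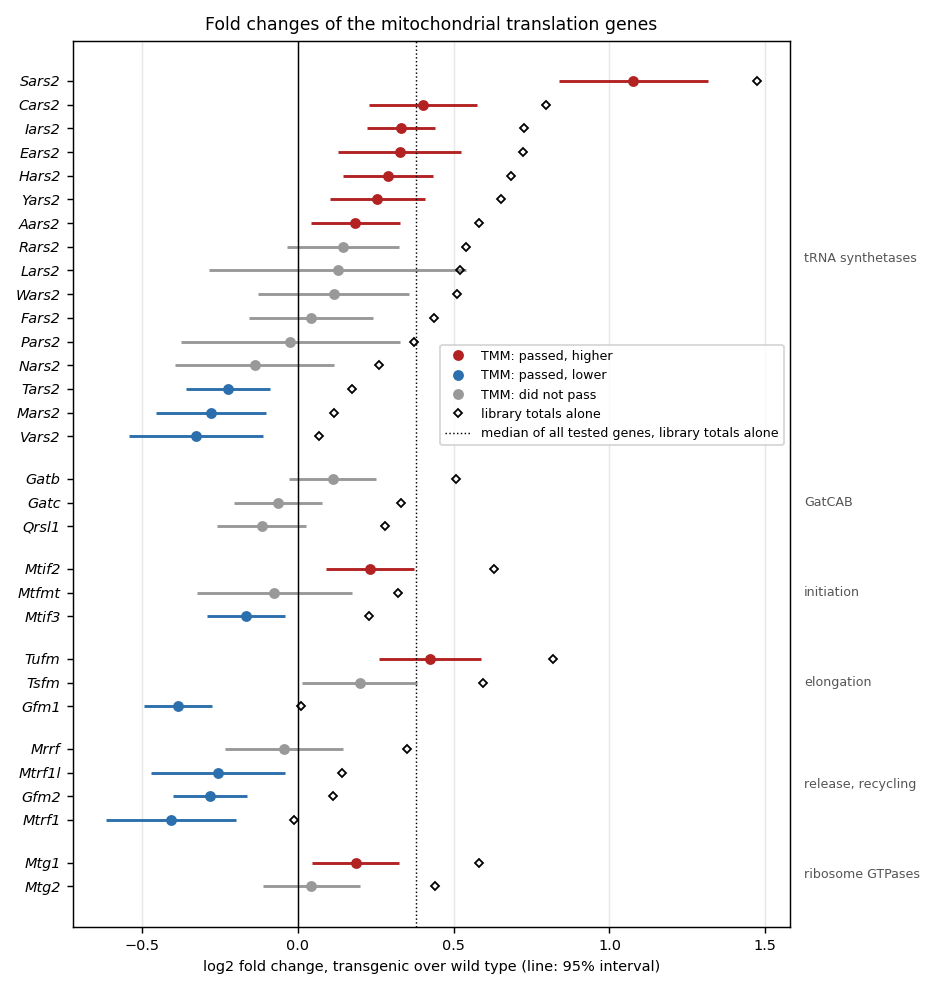
Log2 fold change of each gene, transgenic over wild type, with TMM scaling (filled circles with 95% intervals, red for higher, blue for lower and grey for not passed) and with library totals alone (open diamonds), grouped by role. The dotted line marks the median of all tested genes with library totals alone (0.38); Sars2 at 1.08 stands apart from the rest, which lie between -0.41 and 0.42.

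Levels per kilobase of exon placed the members in a wide order in wild-type muscle. Gfm1 had rank 1 at 34.5 ± 0.28 CPM per kb, and Gatc rank 2 at 18.8 ± 0.83. Gfm2 (10.5 ± 0.21), Iars2 (10.1 ± 0.20), Lars2 (9.89 ± 1.63) and Mtif2 (9.60 ± 0.61) came next, and the spread of Lars2 spans its neighbours in that order. At the low end, 5 members had under 2 CPM per kb: Mtfmt (1.73 ± 0.08), Mars2 (1.32 ± 0.06), Pars2 (1.30 ± 0.15), Nars2 (1.26 ± 0.13) and Wars2 (1.22 ± 0.06). The last 4 did not differ beyond their spread. In transgenic muscle Gfm1 and Gatc kept ranks 1 and 2, at 26.4 ± 0.51 and 18.0 ± 0.70 CPM per kb, Iars2 took rank 3 at 12.7 ± 0.14 and Gfm2 dropped to rank 7 at 8.65 ± 0.33. Exon length was taken over all annotated transcripts, so these ranks depend on the annotation, and which exons were used was not measured.

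Most amino acids have a separate cytosolic synthetase, and the pairs had no common direction. In 17 pairs, both genes passed with TMM in 7, of which 4 had the same direction and 3 the opposite. Of all tested genes 50.7% passed with TMM (25.5% higher and 25.2% lower), beside 62.5% of the mitochondrial and 66.7% of the cytosolic synthetases. The pair counts were not tested against these shares. Fars2 was paired with both Farsa and Farsb, and Eprs with both Ears2 and Pars2, so these genes enter the counts more than once. Hars and Sars rose with their mitochondrial counterparts, by 0.56 (SE 0.07) and 0.24 (SE 0.06). Mars and Tars fell with Mars2 and Tars2, at -0.31 and -0.22 with TMM but 0.09 and 0.18 with library totals. Iars and Aars fell, at -0.55 (SE 0.05) and -0.57 (SE 0.06) with TMM (-0.16 and -0.18 from library totals), while Iars2 and Aars2 rose. Eprs, which charges both glutamate and proline tRNAs in the cytosol, stood at -0.25 with TMM but 0.14 with library totals, beside Ears2, which rose. In 8 pairs 1 gene passed and in 2 neither did. Rars stood at 0.55 (SE 0.05) and Lars at 0.31 (SE 0.06), both past the threshold where Rars2 and Lars2 were not. Differences within a pair were not tested.

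**Figure D4:**
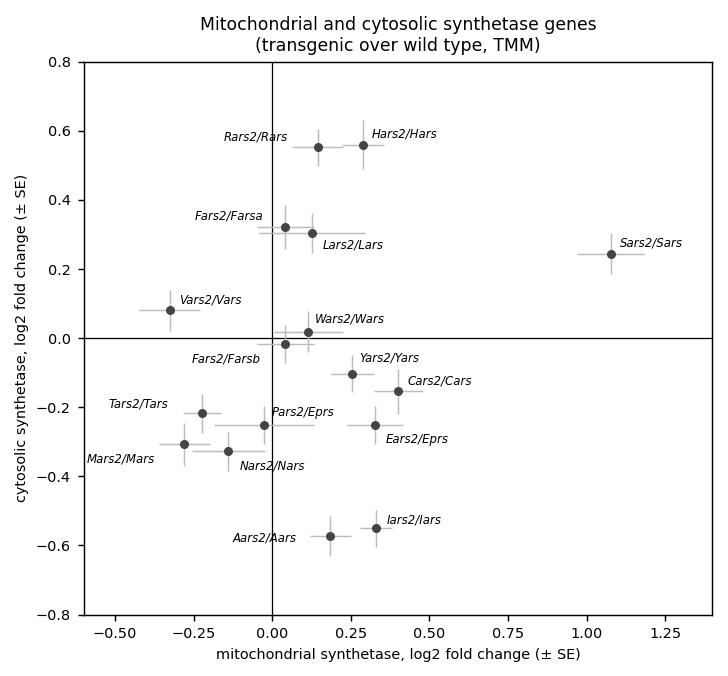
Log2 fold change of each mitochondrial synthetase (horizontal axis) against that of its cytosolic counterpart (vertical axis), transgenic over wild type with TMM scaling, with bars of 1 SE. The 17 pairs fall in all quadrants, with Sars2 and Sars (1.08 and 0.24) farthest to the right.

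Among the members, 9 of 31 (29.0%) start within 1000 bases of a protein-coding gene read in the opposite direction, beside 15.5% of 13519 tested protein-coding genes. These neighbours were listed after values were known. Both genes rose in 3 of these pairs: Sars2 and Mrps12, Hars2 and Hars (0.29 and 0.56), and Ears2 and Ubfd1 (0.33 and 0.31). Of all tested genes 25.5% were higher with TMM. How often both genes rise in such pairs over the whole genome was not counted. Hars2 shares 195 and Ears2 89 exonic bases with the neighbour, on opposite strands, so without strand these counts are not fully separate. In the other pairs at most 1 gene passed. Lyrm4 rose by 0.67 (SE 0.14) beside Fars2, which did not pass, and Orc3 by 0.16 (adjusted p = 0.0397) beside Rars2. Rtn4ip1 had -0.18 (adjusted p = 0.0206; 0.22 with library totals) beside Qrsl1 with -0.12, and Nsa2 had 0.11 (adjusted p = 0.319) beside Gfm2, which fell with TMM but not with library totals (0.11). Gatc with Triap1 and Mrrf with Rbm18 had no call in either gene.

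Other genes of mitochondrial translation also moved both ways. Of 28 further genes for synthetases, ribosome assembly and translation activation, 13 rose and 6 fell (21 and 3 with library totals), with a median of 0.19 (0.58 with library totals). With TMM 67.9% of them were called, beside 50.7% of all tested genes. Library totals called 52.3% of all tested genes higher and 8.73% lower. Lrpprc and Slirp, which form a complex that stabilises mitochondrial mRNAs, rose by 0.82 (SE 0.06) and 0.68 (SE 0.05). Kars and Gars each serve both cytosol and mitochondria. Kars rose by 0.63 (SE 0.06), and Gars fell, at -0.69 (SE 0.06) with TMM and -0.30 with library totals.

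Of 78 mitochondrial ribosomal protein genes, 36 rose and 20 fell with TMM, and 59 and 7 with library totals, with medians of 0.09 and 0.48. This list was taken by symbol alone (Mrpl or Mrps followed by a number) and shares a gene with the further genes given above. With TMM 71.8% of the 78 were called, beside 50.7% of all tested genes. Library totals called 52.3% of all tested genes higher and 8.73% lower. Mrpl21 (0.85) and Mrps14 (0.72) rose, and Mrpl42 (-0.86) and Mrpl13 (-0.79) fell with TMM and, at -0.46 and -0.40, with library totals. Of 24 genes for mitochondrial tRNA processing and modification, 6 rose and 5 fell with TMM (median 0.03), against 18 and 1 with library totals (median 0.43). The share of these 24 called with TMM was 45.8%. Thg1l, a tRNA-histidine guanylyltransferase, rose the most of these, from 4.01 to 13.9 CPM (1.79, SE 0.10), and Alkbh1, a tRNA modification enzyme, rose by 0.82 (SE 0.08). Osgepl1 and Mto1, also tRNA modification enzymes, had -0.55 and -0.43 with TMM (-0.15 and -0.03 from library totals).

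The lists for the cytosol are given for comparison. With TMM 66.7% of the synthetases and 88.9% of the translation factors were called, beside 50.7% of all tested genes. Library totals called 52.3% of all tested genes higher and 8.73% lower. Of 18 cytosolic synthetases, 6 rose and 6 fell with TMM (median -0.05), against 14 and 2 with library totals (median 0.34), Qars rising by 0.62 (SE 0.06). Of 18 cytosolic translation factors, 9 rose and 7 fell with TMM (median 0.21), against 14 and 2 with library totals (median 0.61). Eif5b (0.58) and Eif5a (0.55) rose, and Eif4e (-0.61) and Eef1g (-0.56) fell with TMM and, at -0.22 and -0.17, with library totals.

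**Figure D5:**
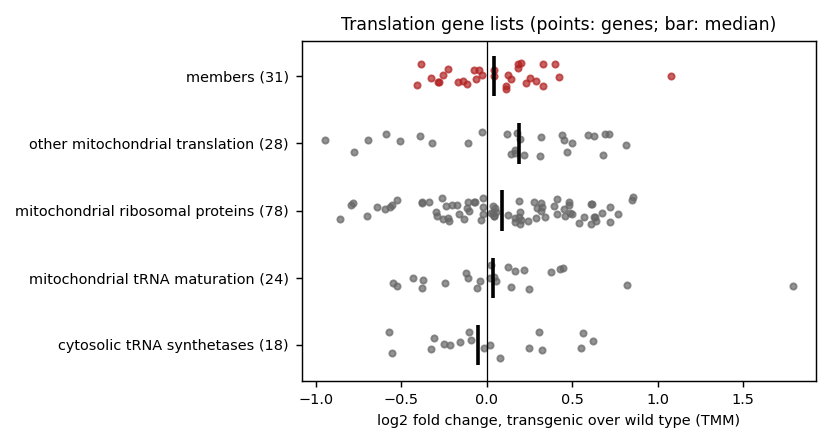
Log2 fold changes, transgenic over wild type with TMM scaling, of the 31 members and of 4 other gene lists, with 1 point per gene (spread vertically at random within a list) and a bar at the median of each list. The medians lie between -0.05 and 0.19, and the members (red) span -0.41 to 1.08.

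What the mitochondrial ribosome reads and is fed with was only partly visible. Beside the counts below, 25.5% of all tested genes were higher and 25.2% lower with TMM. Library totals called 52.3% of all tested genes higher and 8.73% lower. Of the 13 mitochondrially encoded proteins 10 passed the filter, with 2 rising and 3 falling and a median of -0.18 with TMM. Scaled by library totals only, 6 passed as higher and 0 as lower in edgeR (0 lower at an unadjusted p under 0.05 too), with a median of 0.22. The most abundant of the fallers, mt-Co1, a subunit of cytochrome c oxidase, averaged 17047 CPM in transgenic against 21989 CPM in wild-type muscle, a log2 fold change of -0.37 (SE 0.06) with TMM but 0.03 with library totals, while mt-Nd6 rose by 0.32 (SE 0.08). Of the 22 mitochondrial tRNA genes 16 passed the filter, with 4 rising and 7 falling with TMM (median -0.20), against 6 and 5 with library totals (median 0.19). Precursor and mature tRNAs cannot be told apart in these counts, and short mature tRNAs are poorly captured by standard libraries. Fragments were counted without strand and for every overlapping gene, so counts of mitochondrial genes, mt-Nd6 among them, can include other transcripts. Counts from the mitochondrial genome took 11.2% to 11.8% of the transgenic and 8.61% to 9.96% of the wild-type libraries.

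Markers of several cell types moved with genotype. Beside their counts, 25.5% of all tested genes were higher and 25.2% lower with TMM. Library totals called 52.3% of all tested genes higher and 8.73% lower. Of 8 skeletal muscle markers, 5 fell and 1 rose with TMM (4 and 2 with library totals), and their summed level, here and below in CPM with TMM, was 75379 to 77112 CPM in transgenic against 140525 to 150540 CPM in wild-type libraries. All 8 endothelial markers were lower with TMM but 0 with library totals in edgeR, 1 of them at an unadjusted p under 0.05 (summed 364 to 390 against 458 to 488 CPM), and all 7 smooth muscle and pericyte markers were lower with TMM and 4 with library totals (624 to 689 against 989 to 1063 CPM). Satellite cell markers were higher for 2 of 4 with TMM and 4 of 4 with library totals (10.7 to 13.5 against 7.62 to 8.95 CPM). Of 7 adipocyte markers 1 fell with TMM and 0 with library totals, also at an unadjusted p under 0.05 (summed 142 to 178 against 186 to 368 CPM). Of 8 macrophage markers 1 rose with TMM and 1 with library totals (94.6 to 108 against 70.3 to 115 CPM). Of 5 fibroblast markers 2 fell with TMM while 1 rose with library totals (859.7 to 1116 against 1125 to 1350 CPM). In edgeR 0 of 5 Schwann cell markers passed, with TMM or with library totals (68.0 to 262 against 104 to 212 CPM; 0 at an unadjusted p under 0.05 too, and 0 in the DESeq2 Wald test and limma-voom). Every marker passed the filter on low counts, so none was at 0 throughout. The part of these shifts in the values of the members was not tested. The slow myosin gene Myh7, named after its values were seen, was highest in library 2 of each genotype (827 beside 392 and 304 CPM in transgenic, 544 beside 177 and 101 CPM in wild-type libraries). Without both libraries numbered 2, an alternative added after seeing the data, 7 members rose and 4 fell (42.4% of all tested genes passed), and Sars2 was called at a log2 fold change of 1.28.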

How the data were processed

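Total RNA of flash-frozen, pulverised gastrocnemius was extracted with Trizol and sequenced from standard Illumina libraries, per the labels' protocols. Reads were aligned with STAR 2.5.0a to GRCm38.p6, per the submitters' processing notes. The deposited table holds raw fragment counts per gene; per the file headers, featureCounts 2.0.0 counted read pairs without strand and counted a fragment for every gene it overlaps. The authors' deposited comparison table gives a log2 fold change, a p-value and an adjusted p for each gene it lists, made with DESeq2, whose version is not given in the sources used here.

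Gene IDs were matched to GENCODE M21 (GRCm38), which named 51718 of 51911, and each member symbol matched 1 ID. Exon lengths, overlaps and starts came from the same annotation, and promoter windows from RefSeq. Counts were analysed in R 4.3.3 with edgeR 4.0.16: filterByExpr by genotype, TMM scaling, robust quasi-likelihood F test with genotype as the sole term, Benjamini-Hochberg adjustment over all 16593 tested genes and a threshold of 0.05. The SE is the absolute log2 fold change over the square root of F, and intervals are 95%. The biological coefficient of variation was 10.7%. Members had 81 to 5272 counts per library, and 3 counts equal 0.0804 to 0.134 CPM. No library was a duplicate: within a genotype, chi-square over degrees of freedom was 9.92 to 24.0. The fit was also run on simulated counts in which few genes changed, so that run does not bear on the choice of scaling.

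The members, gene lists and tests were chosen with earlier results of these data known. The rule lets the text name members, up to 4 genes per related list by smallest p among those called, Gars, Kars, cytosolic counterparts, genes overlapping a member, and Ppargc1a; others are marked as named after their values were seen. The text does not use every name the rule allows, and 1 gene is not reported here. Alternatives were DESeq2 1.42.0 size factors and Wald test, upper-quartile factors, library totals alone, 2 other filters, limma-voom (limma 3.58.1), a replicate block, leaving out libraries, scaling without mitochondrially encoded genes, and a non-robust fit.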

Additional observations from a re-analysis of the deposited data

How the results depend on the processing

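The scaling mattered most. With library totals alone, 8676 genes (52.3%) were higher and 1448 (8.73%) lower. In that setting 23 members were higher and 0 lower, and the member median was 0.44 (0.38 over all tested genes). Members negative with TMM became positive: Mars2 0.12, Nars2 0.26, Pars2 0.37, Tars2 0.17, Vars2 0.069, Gatc 0.33, Qrsl1 0.28, Mtfmt 0.32, Mtif3 0.23, Gfm1 0.0092, Mtrf1l 0.14, Mrrf 0.35 and Gfm2 0.11. By construction this setting shifts all genes together. The members lower numbered 4 without a filter on low counts (Pars2 then 0.016) and 5 in the DESeq2 Wald test. They numbered 3 to 7 when 1 library was left out, with 8 to 10 higher. Over all tested genes the lower calls also dropped, from 4189 in the main fit to 3950 without the filter and 3785 in the DESeq2 Wald test. With 1 library left out, 3581 to 3931 of all tested genes were lower. The cause was not tested. Leaving out 1 library moved Pars2 from -0.12 to 0.12 and Mrrf from -0.091 to 0.051, and gave Fars2 -0.060 without wild-type library 1. Without both libraries numbered 2 (added after seeing the data), 7 members were higher and 4 lower, with Lars2 -0.079, Pars2 0.13 and Mrrf 0.010. Counting the members with no exon overlap, also added later, left 5 higher and 4 lower. Under every alternative, 6 called members (Tufm, Sars2, Cars2, Iars2, Ears2 and Hars2) kept direction and call, and Gfm1, Gfm2 and Mtrf1 did so under every alternative except library totals. Library totals raise all log2 fold changes together, so that setting favours calls of higher over calls of lower. No alternative changed how fragments were counted. Among the 6, Cars2, Iars2, Ears2 and Hars2 share exonic bases with a gene on the opposite strand, and Tufm shares sequence with Gm9755.

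Same-numbered libraries deviated together with correlations of 0.10, -0.09 and -0.21, so the numbers were not taken as pairs. With the replicate number as a block, 8331 genes passed and 9 members rose and 6 fell, Mtif3 (adjusted p = 0.0547), Mtrf1l (0.0642) and Mtg1 (0.0528) no longer passing in edgeR.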
